A study of Mus musculus with 45 samples.

Results

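The sodium-proton exchangers of the Slc9 family were followed in mouse bone marrow-derived macrophages as gene-level read counts. Members were the genes with a symbol of the form Slc9a or Slc9b plus a number and a count of 10 or more in at least 5 libraries, which held for 9 of the 11 such symbols among 29307 genes in the count table, and values are given for 7 of them. Macrophages came from 15 C57BL/6N mice aged 6 to 10 weeks, 5 carrying Famin p.254I, 5 p.254V and 5 p.284R, bred from heterozygous parents. Marrow cells of each mouse were grown for 6 days with M-CSF and then either left unpolarized (M0) or polarized for 24 h. M1 cells received LPS at 20 ng/mL together with IFN-γ at 50 ng/mL, and M2 cells received IL-4 at 20 ng/mL, which gave 45 libraries of bulk RNA in 9 groups of 5. The 3 libraries that share a genotype and a replicate number were taken as 1 mouse, so each polarization was compared within the same 15 mice. The Famin variants differ in single residues of FAMIN (LACC1), a purine enzyme of macrophages, in all cells of the animal. The study states that C57BL/6 mice express p.254V, so p.254I is not the residue of the strain. Counts per gene do not show which variant a library carries.

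Slc9 exchangers swap sodium ions, or potassium ions in some organelles, for protons across a membrane. At the cell surface they export acid made by metabolism, which activated macrophages produce in large amounts. In the Golgi and in endosomes they let protons leak out of the lumen, against the proton pump, and so set how acid these compartments become. Macrophages depend on this balance in phagosomes and endosomes, where acidity governs digestion and receptor traffic.

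Library totals ran from 17239009 to 43740283 counts (median 27553642), and levels are given as counts for each 1000000 of the scaled library size (CPM). The 7 macrophage markers summed to 19542 to 33182 CPM in M0, 11221 to 15062 CPM in M1 and 9581 to 13827 CPM in M2, and lymphocyte markers to at most 0.502 CPM in any library. The 4 dendritic cell markers were higher in both polarizations without overlap, at 0.459 to 1.62 CPM in M0, 5.26 to 11.5 CPM in M1 and 3.86 to 12.9 CPM in M2. Xcr1 made up most of this in M1 (median 8.17 CPM) and Zbtb46 in M2 (median 7.34 CPM), while Flt3 and Siglech stayed at or below 0.317 and 0.673 CPM, and their part in the results by polarization was not tested. Summed M1 markers were 1589 to 6995 CPM in M1 libraries and at most 49.7 CPM elsewhere, and summed M2 markers were 4928 to 14812 CPM in M2 libraries and at most 914 CPM elsewhere. The M1 library of p.254I replicate 5 stood apart, with 49.1 CPM of Retnla against at most 0.249 CPM in the other M1 libraries, and 40.8 CPM of Arg1 against at most 0.912 CPM. Without that mouse, each count of called members given here for the mean over genotypes in M1 and M2, and for the mean over polarizations, held or gained the rarely counted member Slc9a2. Within p.254I, M2 against M0 then called 3 members in place of 5, without Slc9a4 and Slc9a5. Replicates 4 and 5 of p.254V stood apart for Slc9a9, at the level of p.254I in each polarization. Its p.254V group means and fitted values include both mice unless 1 mouse is said to be left out, and no test was made without both, since they stand apart by the outcome itself. Because the libraries are bulk RNA, fewer cells of a type and less RNA per cell cannot be told apart. Exact permutation p-values measure the spread between these mice. Fits without a mouse block measure the spread between libraries. Their genotype means over polarizations treat the 3 libraries of a mouse as independent.

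Start-site sequence was on hand for 5 of the 7 members, as RefSeq windows of build GRCm38.p6. Each runs from 250 bases before to 50 bases after the RefSeq start, and 3 organelle exchangers whose transcripts moved differently are shown. Slc9a2 and Slc9a4 had no window. Slc9a9 lies at chr9:94669642-94669941 on the plus strand, Slc9a7 at chrX:20291778-20292077 on the minus strand and Slc9a8 at chr2:167421460-167421759 on the plus strand. All are written 5′ to 3′ on the strand of the gene, and the capitals mark the single match to a searched motif.
Slc9a9: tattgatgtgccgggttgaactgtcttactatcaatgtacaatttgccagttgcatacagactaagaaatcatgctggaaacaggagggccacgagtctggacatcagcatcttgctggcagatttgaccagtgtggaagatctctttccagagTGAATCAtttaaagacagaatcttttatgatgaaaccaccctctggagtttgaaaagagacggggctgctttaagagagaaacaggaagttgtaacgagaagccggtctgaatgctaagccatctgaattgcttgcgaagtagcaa
Slc9a7: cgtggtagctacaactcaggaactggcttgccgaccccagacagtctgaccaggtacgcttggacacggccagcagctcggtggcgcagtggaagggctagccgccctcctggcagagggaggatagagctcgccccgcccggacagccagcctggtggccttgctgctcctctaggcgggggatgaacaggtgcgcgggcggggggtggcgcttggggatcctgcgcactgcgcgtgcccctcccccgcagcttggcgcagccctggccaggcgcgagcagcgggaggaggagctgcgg
Slc9a8: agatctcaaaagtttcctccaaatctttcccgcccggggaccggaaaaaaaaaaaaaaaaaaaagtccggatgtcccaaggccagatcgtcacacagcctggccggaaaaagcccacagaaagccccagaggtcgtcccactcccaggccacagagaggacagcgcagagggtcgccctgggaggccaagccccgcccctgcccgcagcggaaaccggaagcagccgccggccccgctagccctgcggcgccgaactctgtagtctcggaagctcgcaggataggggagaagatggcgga
Of these, the Slc9a9 window was the poorest in G and C, at 43.7% with 6 CpG dinucleotides, against 70.7% with 24 in Slc9a7 and 61.3% with 22 in Slc9a8. The median over all 32851 RefSeq windows was 52.7% with 7 CpG dinucleotides. Slc9a5 had 60.7% with 20 and Slc9b2 had 63.3% with 14. The Slc9a5 window (chr8:105348008-105348307) ends before the GENCODE start of the gene (105348843), so it does not describe that start.

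On both strands, 7 motifs were searched. The AP-1 motif TGANTCA matched once, in Slc9a9 as TGAATCA starting 96 bases before the start, and 7.81% of all windows held it. No match was found in the 5 members for GAS (TTCNNNGAA, in 8.3% of windows), the STAT6 site (TTC and GAA with 4 bases between them, 6.95%), the interferon response core (GAAA repeated after 2 bases, 3.44%), the E-box CACGTG (7.15%), the longer TCACGTGA of TFEB and MITF that contains that E-box (0.97%) or the PU.1 motif (GAGGAAGT, 3.2%). A match describes letters in the window and not a bound site.

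The surface exchangers described here were at low levels. Slc9a5, a mainly neuronal exchanger (chr8:105348843-105369881), fell in both polarizations, from a median of 3.82 CPM in M0 (1.65 to 7.55) to 2.69 CPM in M1 (1.09 to 3.65) and 1.76 CPM in M2 (0.754 to 2.47). All ranges overlapped, but Slc9a5 was lower than in the M0 library of the same mouse in 13 of 15 mice in M1 and in 15 of 15 in M2. In edgeR's quasi-likelihood fit over all genes, with Benjamini-Hochberg adjustment, the log2 fold changes were -0.68 ± 0.21 in M1 (SE, adjusted p = 0.0030) and -1.28 ± 0.21 in M2 (adjusted p = 9.7e-07).

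Slc9a4, known from stomach and kidney (chr1:40580081-40630725), had 4 to 46 counts per library. Its medians were 0.829 CPM in M0 (0.313 to 1.41), 0.555 CPM in M1 (0.243 to 0.893) and 1.07 CPM in M2 (0.723 to 1.55), and M1 was below M2 in all 15 mice. Slc9a4 fell in M1 (-0.72 ± 0.17, adjusted p = 3.3e-04). In M2 it was close to the threshold (0.34 ± 0.16, adjusted p = 0.057). It passed with the mouse as a block (0.38, adjusted p = 0.011), in limma-voom (0.41, adjusted p = 0.018) and without p.254I replicate 1, 2 or 3, p.254V replicate 2 or p.284R replicate 1 or 2 (0.36 to 0.43, adjusted p = 0.018 to 0.049).

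Slc9a2, an apical exchanger of gut epithelium (chr1:40680574-40769273), was the member nearest to the count threshold, which it met in exactly 5 libraries. Slc9b1 met it in 3 and was left out, and Slc9a3 had a count of 0 in every library. Slc9a2 had 96 counts over the 15 M0 libraries (2 to 17 in each), 9 over M1 (0 to 2) and 110 over M2 (1 to 16). In M1 it was at 0 in 8 libraries, where 3 counts, the limit that a count of 0 allows, come to 0.0999 to 0.182 CPM. It did not pass the filter on low counts of the main fit, so 6 of these 7 members were tested. No M1 library had more than 2 counts, so Slc9a2 became a member only through M0 and M2 libraries. A test of M1 against M0 is therefore not independent of how Slc9a2 was chosen, and no conclusion is drawn from it. With no such filter the log2 difference was -3.11 ± 0.42 in M1, and in M2 it did not pass (0.37 ± 0.28, adjusted p = 0.28). In 15 of 15 mice Slc9a2 was lower in M1 than in M0.

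Slc9a7, the exchanger of the trans-Golgi network (chrX:20105754-20291807), fell in both polarizations and further in M1. It ran from 14.4 to 40.0 CPM in M0 (median 25.2), from 3.59 to 7.04 CPM in M1 (median 5.09) and from 10.0 to 15.1 CPM in M2 (median 12.8). The M1 libraries lay below all others, and the M2 range touched only the lowest M0 libraries. The M1 level was 0.210 of that in M0 (log2 fold change -2.25 ± 0.14, adjusted p = 1.2e-17), the M2 difference was -0.95 ± 0.13 (adjusted p = 4.8e-08), and M1 was below M2 (-1.30 ± 0.14, adjusted p = 7.6e-11). Within p.254I, p.254V and p.284R, the M1 differences were -2.18, -2.20 and -2.39 on the log2 scale, and all 15 mice had less Slc9a7 in M1 and in M2. The M2 fall was largest in replicate number 1 and small in numbers 4 and 5, which was not tested. Over the genotypes, number 1 had 36.3 to 40.0 CPM in M0 and 12.5 to 13.995 CPM in M2. Number 4 had 14.98 to 18.7 CPM in M0 and 12.8 to 15.1 CPM in M2. Number 5 had 14.4 to 15.8 CPM in M0 and 12.6 to 13.3 CPM in M2.

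Slc9a8, the exchanger of the Golgi stacks (chr2:167421712-167477000), rose slightly in M1. It ran from 42.8 to 54.4 CPM in M0 (median 47.7), from 50.7 to 63.9 CPM in M1 (median 55.5) and from 40.6 to 59.4 CPM in M2 (median 49.7), with overlap throughout. It rose in M1 by 0.22 ± 0.05 (adjusted p = 4.4e-05) and was higher there in 15 of 15 mice. In M2 the difference was 0.08 ± 0.05 (adjusted p = 0.10), which passed with the mouse as a block (0.08, adjusted p = 0.019) and without p.254I replicate 1 (0.0995, adjusted p = 0.038).

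Slc9b2, also named NHA2 and known from osteoclasts, cells of the same lineage (chr3:135307700-135345387), was lowest in M2. Its medians were 2.07 CPM in M0 (1.16 to 4.54), 2.07 CPM in M1 (0.712 to 3.45) and 0.759 CPM in M2 (0.517 to 1.64). In M2 the level was 0.324 of that in M0 (-1.63 ± 0.21, adjusted p = 4.1e-09), lower in 15 of 15 mice. The M1 difference was smaller (-0.53 ± 0.19, adjusted p = 0.012), with 9 of 15 mice lower, and without p.254V replicate 5 it was -0.43 with adjusted p = 0.053.

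**Figure D1:**
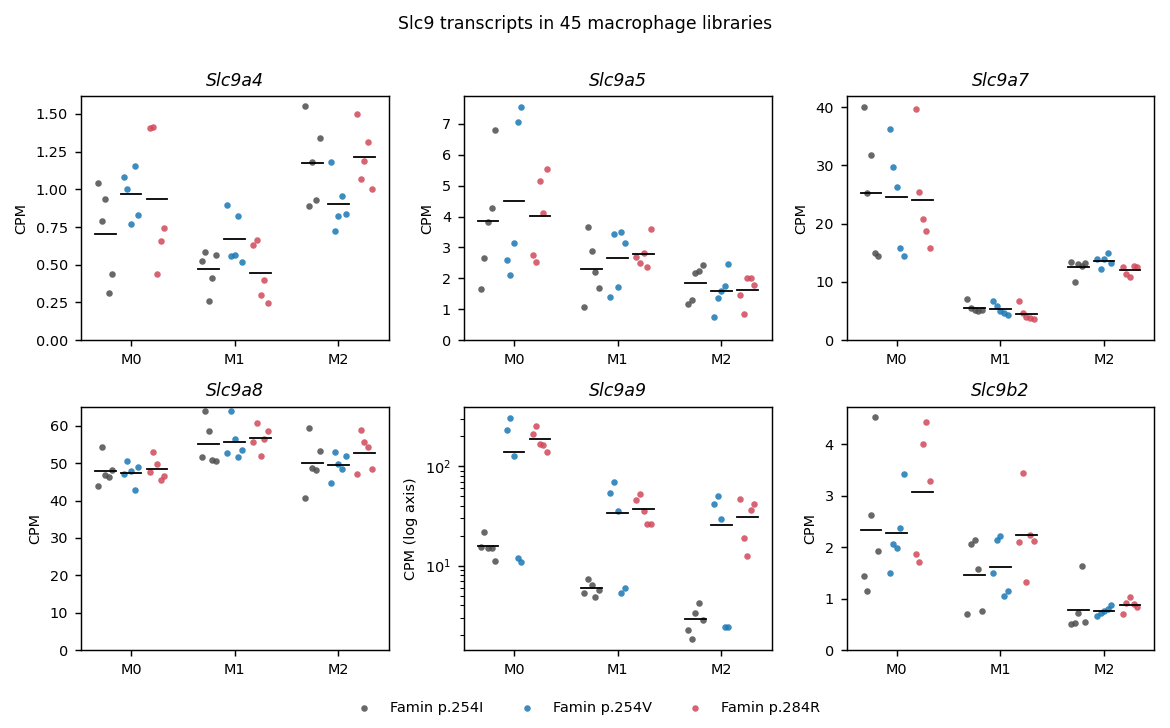
Level of 6 Slc9 members in CPM (vertical axis, log scale for Slc9a9) in each of the 45 libraries, by polarization (horizontal axis) and genotype (color), with bars at the mean of each group of 5. Slc9a7 is lowest in every M1 library (3.59 to 7.04 CPM), and Slc9a9 differs between genotypes, with p.254V in 2 clusters.

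Slc9a9, the exchanger of late and recycling endosomes (ENSMUSG00000031129, chr9:94669909-95230445), had the widest range, from 47 to 8919 counts per library. In M0, the replicates 1 to 5 of p.254I had 15.3, 21.7, 15.1, 14.9 and 11.2 CPM. Those of p.254V had 231, 308, 127, 12.0 and 10.9 CPM. Those of p.284R had 213, 253, 169, 162 and 140 CPM. All p.284R libraries and 3 of the p.254V libraries were above every p.254I library, while p.254V replicates 4 and 5 fell within or below the p.254I range.

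In M1, Slc9a9 was at 5.28, 7.40, 6.37, 4.89 and 5.65 CPM in p.254I. In p.254V it was at 53.5, 69.8, 35.1, 5.25 and 6.00 CPM. In p.284R it was at 45.6, 52.1, 35.6, 26.0 and 26.4 CPM. The split of the genotypes and of the p.254V mice was as in M0, at a lower level. In M2, Slc9a9 was at 2.25, 1.81, 3.35, 4.24 and 2.83 CPM in p.254I. In p.254V it was at 42.0, 50.3, 29.6, 2.41 and 2.43 CPM. In p.284R it was at 46.4, 19.2, 12.5, 36.0 and 41.7 CPM. The p.284R libraries again lay above all p.254I libraries, with replicates 2 and 3 lowest among them.

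By group mean, Slc9a9 was highest in p.284R M0 (187 ± 45.6 CPM, SD, n = 5), then p.254V M0 (138 ± 132), p.284R M1 (37.1 ± 11.6), p.254V M1 (33.9 ± 28.6), p.284R M2 (31.2 ± 14.7), p.254V M2 (25.4 ± 22.2), p.254I M0 (15.6 ± 3.78), p.254I M1 (5.92 ± 0.994) and p.254I M2 (2.90 ± 0.947). In this order the range of each group overlapped with that of the next as far as p.254I M0. The p.254V ranges were wide because replicates 4 and 5 lay low, so this overlap does not show that neighbours were alike. The p.284R libraries of M0 (140 to 253 CPM) and M1 (26.0 to 52.1 CPM) did not overlap. The 3 p.254I groups did not overlap with each other.

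Slc9a9 fell in both polarizations, and in 15 of 15 mice in each. The M1 level was 0.265 of that in M0 (-1.92 ± 0.40, adjusted p = 4.2e-05) and the M2 level 0.179 (-2.48 ± 0.41, adjusted p = 1.3e-06). The difference between M1 and M2 did not pass without a block (0.57 ± 0.41, adjusted p = 0.21), but with the mouse as a block it was 0.62 with adjusted p = 0.0013, and Slc9a9 was higher in M1 than in M2 in 12 of 15 mice.

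Within genotypes, the M1 difference was -1.40 ± 0.73 in p.254I (adjusted p = 0.095), -2.01 in p.254V (adjusted p = 0.0088, and -2.05 to -1.88 as each mouse was left out) and -2.33 in p.284R (adjusted p = 0.0028). In p.254I it passed with the mouse as a block (-1.39, adjusted p = 1.1e-04), with only the compared libraries in the fit, and without p.254V replicate 4 or 5. The main fit takes 1 spread per gene over all groups, so the split p.254V mice enter the p.254I result. The M2 difference was -2.42 in p.254I (adjusted p = 0.0079), -2.44 in p.254V (adjusted p = 0.0025, and -2.54 to -2.30 as each mouse was left out) and -2.59 in p.284R (adjusted p = 0.0013). Limma-voom did not call the M2 difference in p.254I (adjusted p = 0.13) or the M1 difference in p.254V (adjusted p = 0.061), and with only the compared libraries neither p.254V difference passed (adjusted p = 0.084 in M1 and 0.071 in M2).

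**Figure D2:**
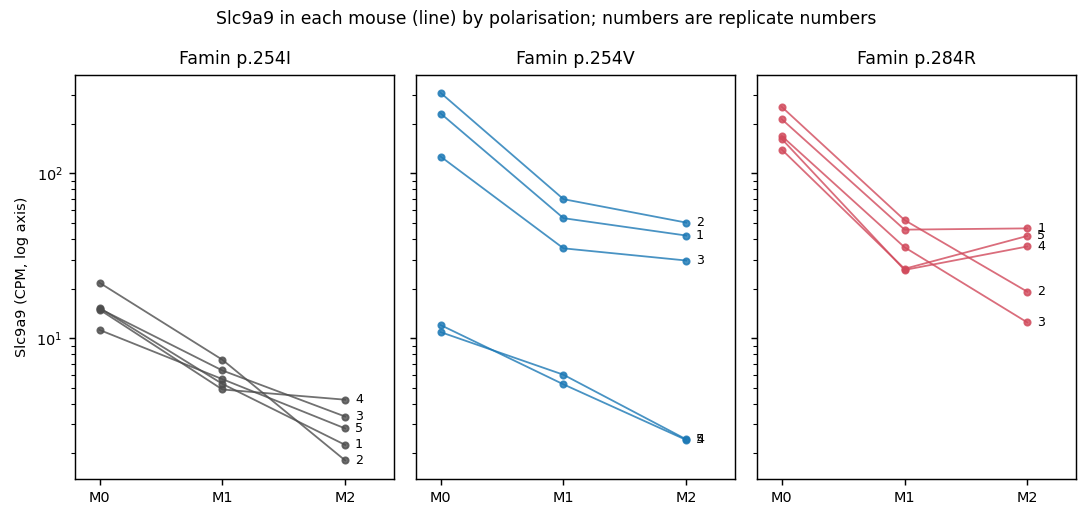
Slc9a9 level in CPM (vertical axis, log scale) in M0, M1 and M2 (horizontal axis) for each mouse, 1 line per mouse in a panel per genotype, marked by replicate number. Every line falls from M0 to M1, and p.254V replicates 4 and 5 start at 12.0 and 10.9 CPM, near the 11.2 to 21.7 CPM of p.254I.

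As the mean over genotypes, M1 against M0 called all 6 of the reported members that were tested, 1 higher (Slc9a8) and 5 lower. Of all 12905 genes tested 77.3% were called, 37% higher and 40.3% lower, so a count of called members describes the family no more than it does other genes. M2 against M0 called 4 of 6, with Slc9a5, Slc9a7, Slc9a9 and Slc9b2 lower, beside 76.4% of all genes (36.8% higher and 39.6% lower). With the mouse as a block it called all 6. M1 against M2 called 5 of 6, beside 79.1% of all genes (39% higher and 40.1% lower), with Slc9a5, Slc9a8 and Slc9b2 higher in M1 and Slc9a4 and Slc9a7 lower. These 3 comparisons share libraries. The median log2 fold change of these 6 members was -0.70 in M1 and -1.12 in M2, and that of all genes tested was -0.03 in both. These medians leave out the 2 members not reported here, so they do not describe the whole family. Summed over all members but Slc9a9, the level was 192 CPM in M0, 174 CPM in M1 and 234 CPM in M2.

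Within genotypes fewer members passed. M1 against M0 called 2 of 6 in p.254I (60% of all genes), 3 in p.254V (62.5%) and 4 in p.284R (63.4%), and Slc9a8 higher with Slc9a7 lower were common to these. The Slc9a8 call was lost in p.254I with only the compared libraries (0.198, adjusted p = 0.064) and without p.254I replicate 3 (0.172, adjusted p = 0.10), and in p.284R without p.284R replicate 4 (0.204, adjusted p = 0.051). With the mouse as a block, Slc9a5 (-0.65, adjusted p = 0.027) and Slc9a9 also passed in p.254I, and Slc9a4 (-0.54, adjusted p = 0.045) and Slc9a5 (-0.69, adjusted p = 0.016) in p.254V. M2 against M0 called 5 in p.254I (60.6%), 4 in p.254V (57.4%) and 4 in p.284R (59.9%). The member added in p.254I was Slc9a4, higher by 0.73 with adjusted p = 0.026. This call was lost with only the compared libraries (0.71, adjusted p = 0.082) and without p.254I replicate 4 (0.64, adjusted p = 0.066) or 5 (0.56, adjusted p = 0.13). With the mouse as a block, Slc9a8 also passed in M2 of p.284R (0.12, adjusted p = 0.045).

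**Figure D3:**
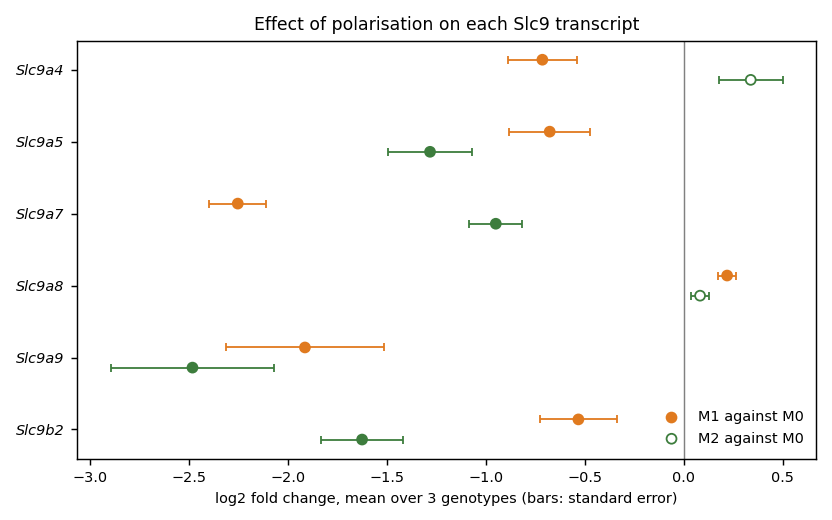
Log2 fold change (horizontal axis) of each reported Slc9 member tested against M0, with bars of 1 SE, in M1 and M2 as the mean over genotypes. Filled points passed an adjusted p of 0.05 and open points did not, and Slc9a9 and Slc9a7 show the largest falls (-2.48 in M2 and -2.25 in M1).

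Genotype was compared with p.254I as the shared reference, so the p.284R and p.254V comparisons are not independent. Since p.254V is the residue of the strain, a higher level in p.254V can equally be read as a lower level in p.254I. As the mean over polarizations, Slc9a9 was the only member called in either. It was 9.27-fold higher in p.284R (log2 fold change 3.21 ± 0.43, adjusted p = 3.1e-05) and 7.57-fold higher in p.254V (2.92 ± 0.43, adjusted p = 4.6e-04). Only 2 genes, or 0.0155% of those tested, were called in each. The members were chosen with earlier results of these data known, so the Slc9a9 call cannot be weighed against that share. The p.284R value ran from 3.11 to 3.297 as each mouse was left out. The fit had no mouse term and counted the 3 libraries of a mouse as independent, so these p-values can be too small.

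The p.254V value rested on 3 of 5 mice. It was 3.21 without replicate 4 and 3.21 without replicate 5 of p.254V, and limma-voom gave 2.04 with adjusted p = 1.00. The p.284R and p.254V mice differed by 0.29 ± 0.38 for Slc9a9 (adjusted p = 0.96). That value rested on single mice, at 0.0011 without p.254V replicate 5, 0.0021 without replicate 4, 0.54 without replicate 1, 0.75 without replicate 2 and 0.19 without p.284R replicate 1, and it was 0.73 with the replicate number as a block and 1.11 in limma-voom. No member passed in that comparison in edgeR (0% of all genes called), DESeq2 or limma-voom.

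The other 5 reported members that were tested lay between -0.14 and 0.38 on the log2 scale in p.284R and between -0.01 and 0.20 in p.254V, and none was called. Their group means were close. Slc9a7 in M0 was 24.1 to 25.3 CPM over the 3 genotypes, and Slc9a8 in M0 was 47.5 to 48.5 CPM.

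Within single polarizations edgeR called no member in p.284R or p.254V, where Slc9a9 had log2 fold changes of 3.58 (adjusted p = 0.17), 2.64 (adjusted p = 0.16) and 3.41 (adjusted p = 0.64) in M0, M1 and M2 of p.284R, and 3.14, 2.52 and 3.11 in those of p.254V. Without replicate 4 or 5 of p.254V, the p.254V values were 3.43, 2.79 and 3.42, and Slc9a9 was called in M0 (adjusted p = 0.019 and 0.017), as it then was in each polarization of p.284R. With the replicate number as a block, which pairs the genotypes in M0 and M1, Slc9a9 was called in M0 of p.284R (3.597, adjusted p = 0.029) and not in M1 (2.64, adjusted p = 0.063). Genes called were 0% of all in M0, 0.263% in M1 and 0.00775% in M2 for p.284R, and 0% in each for p.254V. The DESeq2 Wald test called Slc9a9 in M0, M1 and M2 of p.284R (adjusted p = 0.0011, 0.026 and 0.0022) and in M0 and M2 of p.254V (adjusted p = 0.035 and 0.021). With only the compared libraries in the edgeR fit, it was called in each polarization of p.284R (adjusted p = 2.6e-05, 0.0010 and 0.0074). The main fit takes 1 spread per gene over all 9 groups, so the split p.254V mice enter the p.284R comparison too. In each polarization, p.284R was above p.254I in 5 of 5 replicate numbers, and the ratio of the means was 12.0 in M0, 6.28 in M1 and 10.8 in M2.

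The size of the Slc9a9 fall was also compared per mouse. In M1, p.254I kept 38.8 ± 7.41% of its M0 level (SD, n = 5, 32.8% to 50.3%), p.254V 34.5 ± 14.4% (22.7% to 55.1%, with replicates 4 and 5 at 43.7% and 55.1%) and p.284R 19.6 ± 2.22% (16.0% to 21.4%). The p.284R mice all kept less than any p.254I mouse. On log2(CPM + 1), the M1 minus M0 difference was -2.33 ± 0.16 in p.284R and -1.25 ± 0.24 in p.254I, apart by -1.08 (exact permutation over mice, two-sided, p = 0.00794, which no split of 5 against 5 can undercut, adjusted p = 0.0317 over 4 such tests). With genotypes swapped only within a replicate number, which respects the shared deviations of equal numbers, the exact permutation p was 0.0625, the smallest such swaps can give, and the adjusted p was 0.25.

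That scale understates changes at low levels, where the p.254I values lie. The interaction term in edgeR was -0.94 ± 0.97 (adjusted p = 1.00). That SE rests on the spread over all 9 groups, the split p.254V mice included. The other per-mouse tests gave -0.57 for p.284R in M2 (exact permutation p = 0.254), -0.32 for p.254V in M1 (exact permutation p = 0.294) and -0.06 for p.254V in M2 (exact permutation p = 0.849). Single mice moved these, for p.284R in M2 to -0.32 without p.284R replicate 2 or 3, and for p.254V in M1 to -0.18 or -0.19 without p.254V replicate 2 or 1 and to -0.52 without replicate 5. As each mouse was left out, the ranges were -0.81 to -0.32 and -0.52 to -0.18. In M2, the genotypes kept 19.8 ± 8.16%, 20.1 ± 2.91% and 17.8 ± 9.95% of M0 for p.254I, p.254V and p.284R. No interaction of genotype with polarization called a member in edgeR (0% of all genes), DESeq2 or limma-voom. That of Slc9a4 for p.254V in M2 was -0.84 ± 0.40 in edgeR and was not called.

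As a share of the reads of all 9 members, Slc9a9 fell in both polarizations. A library held 5090 to 14455 Slc9 reads in M0, 3249 to 7192 in M1 and 4726 to 9275 in M2. In M0, Slc9a9 took a mean of 29.8% over the 15 libraries (5.61% to 61.7%), Slc9a8 17.6% and Slc9a7 8.60%. In M1 Slc9a8 had 28.2%, Slc9a9 11.8% (2.79% to 26.2%) and Slc9a7 2.61%. In M2 Slc9a8 had 20.2%, Slc9a9 7.24% (0.812% to 17.5%) and Slc9a7 5.05%. Slc9a5, Slc9b2, Slc9a4 and Slc9a2 were the 4 smallest in each, none above 1.65% on average.

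Shares of 1 total move together, and that of Slc9a9 fell in 15 of 15 mice in each polarization. In M1 the Slc9a8 share rose in 15 of 15 mice. The Slc9a8 share in M2 was higher in 9 of 15 mice with Slc9a9 in the total and lower in 15 of 15 without it (25.1% in M0, 21.7% in M2). The Slc9a7 share fell in 15 of 15 mice in M1 and in M2.

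The Slc9a9 share differed between genotypes. It was 7.49 ± 1.53% of Slc9 reads in M0 of p.254I (SD, n = 5), 33.1 ± 26.0% in p.254V and 49.0 ± 5.27% in p.284R. In M1 the values were 3.29 ± 0.371%, 14.6 ± 10.99% and 17.4 ± 4.49%, and in M2 1.25 ± 0.405%, 8.96 ± 7.75% and 11.5 ± 4.72%. The p.284R share exceeded that of p.254I by 41.5, 14.1 and 10.3 percentage points in M0, M1 and M2 (two-sided exact permutation p = 0.00794 in each, adjusted p = 0.0159 over 6 tests). With swaps only within a replicate number, the exact permutation p was 0.0625 in each, the smallest such swaps can give (adjusted p = 0.0938). For p.254V the excess was 25.6, 11.4 and 7.71 points (exact permutation p = 0.159, 0.103 and 0.143), which passed an unadjusted 0.05 in the exact permutation test when p.254V replicate 4 or 5 was left out.

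**Figure D4:**
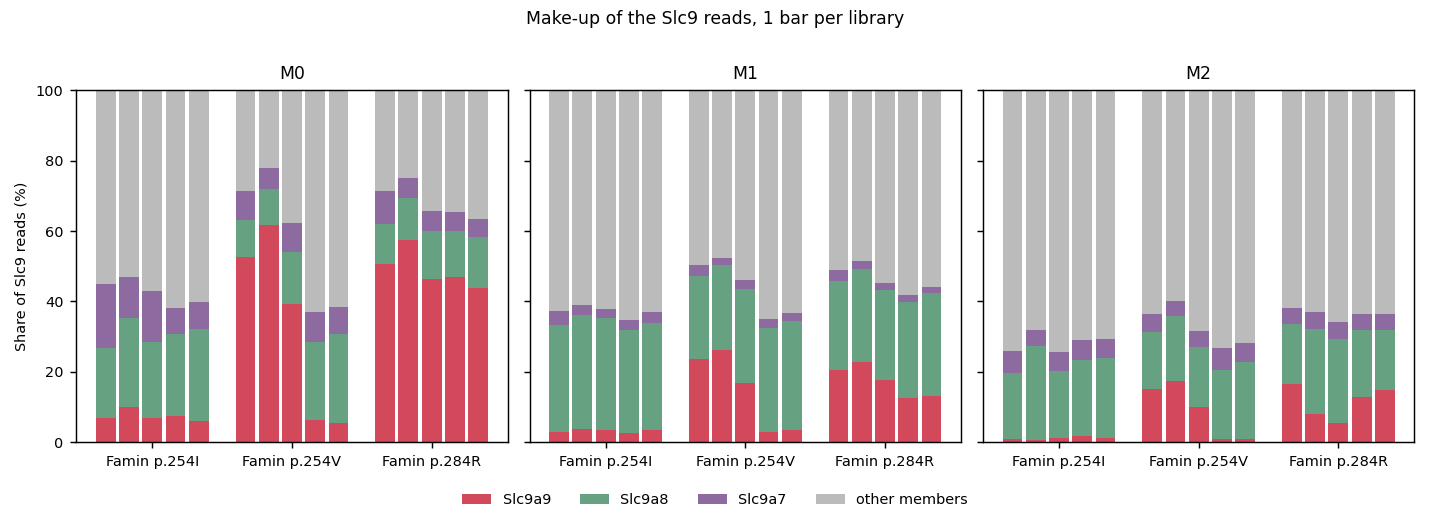
Percent of Slc9 reads (vertical axis, from 0) taken by Slc9a9, Slc9a8, Slc9a7 and the other members together in each of the 45 libraries, 1 stacked bar per library, grouped by genotype and polarization. Slc9a9 takes 49.0% on average in p.284R M0 and 7.49% in p.254I M0, and p.254V replicates 4 and 5 look like p.254I.

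The summed level of the members in M0 was highest where Slc9a9 was. It was 208 ± 15.3 CPM in p.254I, 330 ± 140 CPM in p.254V and 379 ± 51.8 CPM in p.284R (SD, n = 5). Without Slc9a9 the sums were 192, 192 and 191 CPM, and over all 15 mice 192 CPM in M0, 174 CPM in M1 and 234 CPM in M2. Per kilobase of exon, which allows levels of different genes to be compared, the M0 means over 15 libraries were 19.998 CPM per kb for Slc9a9, 6.45 for Slc9a7 and 5.27 for Slc9a8. In M0 of p.254I, Slc9a9 had 2.75 CPM per kb, below Slc9a7 with 6.62 and Slc9a8 with 5.27. In M1 the means over 15 libraries were 6.13 CPM per kb for Slc9a8, 4.52 for Slc9a9 and 1.35 for Slc9a7, and in M2 they were 5.58, 3.49 and 3.34. In p.254I alone Slc9a9 was below Slc9a7 there too, with 1.04 against 1.46 CPM per kb in M1 and 0.510 against 3.28 in M2.

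Members also varied with the replicate number, which the labels do not explain. In M0, Slc9a7 was 36.3 to 40.0 CPM over the genotypes in number 1, 25.2 to 29.7 in number 2, 20.8 to 31.7 in number 3, 14.98 to 18.7 in number 4 and 14.4 to 15.8 in number 5. Slc9a5 ran the other way, from 1.65 to 2.74 CPM in number 1 and from 5.53 to 7.55 CPM in number 5. The log2 levels of Slc9a5 and Slc9a7 had a Pearson r of -0.86 over the 15 M0 libraries, as a description of libraries that share their number.

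The macrophage markers moved with the number as well. Their sum in M0 was 30021 to 31771 CPM in number 1 and 19542 to 21502 CPM in number 5. Neutrophil markers summed to 90.8 to 200 CPM in number 1, 192 to 279 CPM in number 2 and 26.0 to 41.6 CPM in number 5. Fibroblast markers reached at most 89.5 CPM in M0, 20.8 CPM in M1 and 32.9 CPM in M2. Their part in the levels of Slc9a5 and Slc9a7 was not tested.

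**Figure D5:**
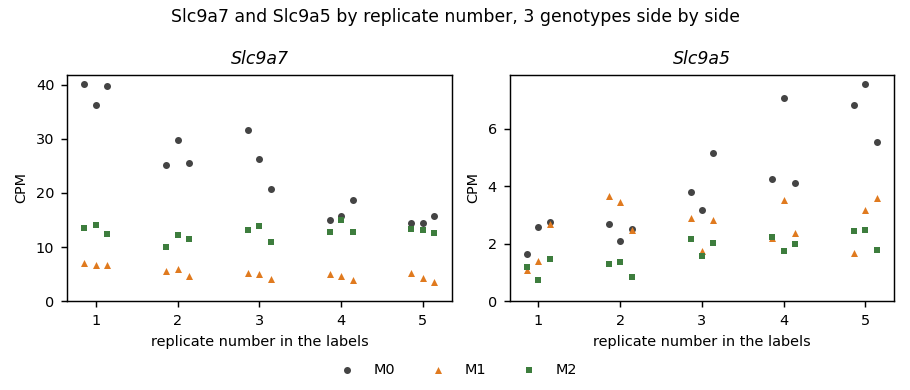
Level in CPM (vertical axis) of Slc9a7 and Slc9a5 by replicate number (horizontal axis), 1 point per library, by polarization. In M0, Slc9a7 is highest in number 1 (36.3 to 40.0 CPM) and Slc9a5 highest in number 5 (5.53 to 7.55 CPM).

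Genes that act with the exchangers moved in both directions. Of 18 listed partners and regulators, 16 were tested and 6 rose and 9 fell in M1, and 6 rose and 8 fell in M2, beside the 77.3% and 76.4% of all genes called. The counts of these lists are descriptions to be read against those shares. Chp2, a calcineurin B-like cofactor of surface exchangers, fell by 4.48 on the log2 scale in M1 (adjusted p = 5.2e-15) and by 3.56 in M2 (adjusted p = 5.6e-13), from 7.48 CPM to 0.338 and 0.689 CPM. Slc9a3r2, a scaffold that anchors exchangers to the cytoskeleton, rose in M2 by 4.08 (adjusted p = 5.3e-19), from 0.652 to 10.96 CPM. Msn, which encodes the membrane-cytoskeleton linker moesin, had the largest rise of the list in M1 (0.42, adjusted p = 1.7e-14).

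The Na,K-ATPase supplies the sodium gradient that surface exchangers use, and 5 of its 9 listed genes were tested, with 3 higher and 2 lower in M1 and in M2. Atp1b3, a beta subunit, rose in M1 by 1.67 (adjusted p = 3.1e-21), from 287 to 912 CPM. Fxyd2, a regulatory subunit, fell by 1.24 in M1 (adjusted p = 1.5e-07) and by 2.14 in M2 (adjusted p = 1.7e-12).

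All 12 endolysosomal channels and exchangers were tested, with 3 higher and 8 lower in M1 and 6 higher and 5 lower in M2. Clcn7, the lysosomal chloride-proton exchanger, rose in M1 by 1.54 (adjusted p = 7.2e-28), from 317 to 923 CPM. Clcn5, its endosomal relative, rose in M2 by 0.95 (adjusted p = 2.5e-17), from 65.97 to 128 CPM, and the cation channel gene Mcoln3 fell in M1 by 1.85 (adjusted p = 8.3e-12) and in M2 by 1.22 (adjusted p = 8.1e-08).

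Of 9 other acid extruders, 6 were tested, and 2 rose and 3 fell in each polarization. Slc4a8, a sodium-driven bicarbonate transporter, rose in M1 by 5.35 (adjusted p = 2.4e-26), from 0.230 to 9.18 CPM, and fell in M2 by 1.38 (adjusted p = 2.1e-04). Hvcn1, the voltage-gated proton channel, fell in M1 by 2.31 (adjusted p = 4.1e-22), from 128 to 26.6 CPM, and Slc16a1, a lactate-proton carrier, rose in M2 by 1.20 (adjusted p = 5.2e-15). The median log2 fold changes in M1 were -0.27 for the partners, 0.49 for the Na,K-ATPase, -0.50 for the endolysosomal genes and -0.18 for the acid extruders, and in M2 -0.11, 0.42, 0.08 and -0.19, beside -0.03 for all genes. No gene of these lists was called by genotype in edgeR, DESeq2 or limma-voom with all mice, beside 0.0155% of all genes called in edgeR in each comparison with p.254I.

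Within single polarizations, the genes whose levels varied most like those of Slc9a9 were As3mt, Bcl3, Mansc1, Arhgef18 and Arl5c. Their mean Pearson r was 0.67, 0.66, 0.64, 0.63 and 0.62 over M0, M1 and M2 (15 libraries each, among 12904 genes). Unlike Slc9a9, As3mt, Bcl3, Mansc1 and Arl5c rose in M1, by 0.46, 0.56, 1.48 and 0.76 on the log2 scale. These fell in M2, by 0.52, 0.96, 0.66 and 1.88, and Arhgef18 was called in neither. By genotype none was called, with differences of 0.21 to 0.35 in p.284R and 0.08 to 0.29 in p.254V. Over the 9 group means, the closest gene was Reps2 for Slc9a7, Sqstm1 for Slc9b2, Slc6a9 for Slc9a8, Zfp865 for Slc9a5 and Zfp775 for Slc9a4, with r from 0.965 to 0.999.

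Around Slc9a9, 19 genes of the count table lay within 1000000 bases and 9 were tested. None was called by genotype in edgeR, where Slc9a9 was called, beside 0.0155% of all genes in each comparison. The largest differences were those of Pcolce2, at -0.94 ± 0.66 (SE) in p.284R and -0.44 ± 0.64 in p.254V. Pcolce2 was near the floor, with at most 18 counts in any library. By polarization, 7 of the 9 were called in M1 and 8 in M2, beside 77.3% and 76.4% of all genes. The annotation places Gm16262 and Gm47168 on the opposite strand within Slc9a9, and other opposite-strand genes within Slc9a2, Slc9a4 and Slc9a7. Whether the counting used the strand is not given in the sources used here, so reads of these pairs could not be told apart.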

How the data were processed

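RNA was sequenced as stranded single-end libraries. The labels and the study's methods name Trim Galore and HISAT2, whereas the series' design text names Cutadapt and STAR, and both name mm10. The counting tool, annotation and strand setting are not given in the sources used here. The authors deposited read counts per Ensembl gene, which were used as deposited, and a table of CPM values, which was not used. Identifiers were matched to GENCODE vM21 for 29081 of 29307 genes. Groups and mice were taken from the sample titles, and the members and lists were chosen with earlier results of these data known.

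Genes were filtered with filterByExpr, which left 12905, and scaled by TMM (factors 0.939 to 1.10). 1 edgeR 4.0.16 quasi-likelihood fit (robust, R 4.3.3, no block) covered the 9 groups of 45 libraries, with Benjamini-Hochberg adjustment over all genes tested and a threshold of 0.05. A called gene passed that threshold. CPM used full library totals. Log2 values per mouse had a pseudocount of 1, and exact permutation tests used all 252 splits of 5 against 5 (smallest p 0.00794). Scripts were tested on simulated data. The limit given for a count of 0 covers counting error only, whereas each SE and SD includes variation between libraries.

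Alternatives were DESeq2 1.42.0 (Wald test and size factors), limma 3.58.1 voom with and without a mouse effect, other count filters, only the compared libraries, a mouse or replicate number block, each mouse left out, shares per kb or without Slc9a9, another pseudocount and, chosen after seeing the data, permutation by swaps within a replicate number. Where limma-voom changed a call or sign of a member, its values with and without the mouse effect were the same. That effect therefore added no separate check. Pairing by mouse rests on the design, in which each of 5 mice per genotype gave an M0, M1 and M2 culture. Deviations from group means correlated above 0.1 in 39 of 45 pairs of libraries of a mouse (-0.20 to 0.64, median 0.31, 7342 genes). The labels do not say what a number shared by genotypes marks, but such libraries correlated above 0.1 in 15 of 15 pairs in M0 and in M1 (medians 0.71 and 0.53) and in 13 of 15 in M2 (-0.47 to 0.79, median 0.46), so the numbers were taken to pair the genotypes in M0 and M1. Members are described with their values. A few genes, 2 members and 1 listed gene, are not reported here, while totals and shares cover all 9 members. For likeness, the 5 genes with the highest mean r to Slc9a9 and the closest gene to each other member by r over group means are named, and from each list the called genes with the largest rise and fall. Figures were drawn with matplotlib 3.10.9.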

Additional observations from a re-analysis of the deposited data

Results flagged for a closer look

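In 3 of 54 groups of 5 libraries, 1 library lay further from the others than Dixon's limit of 0.71 for the gap over the range allows, where chance flags about 1 in 20 groups. Slc9a7 was 7.04 CPM in p.254I M1 replicate 1, with a gap of 0.712 of the range. Slc9a7 was 10.0 CPM in p.254I M2 replicate 2, with a gap of 0.794. Slc9b2 was 1.64 CPM in p.254I M2 replicate 4, with a gap of 0.816.

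In the per-mouse test the fall of Slc9a9 in M1 differed between genotypes, by -1.08 on log2(CPM + 1) in p.284R against p.254I (exact permutation p = 0.00794, adjusted p = 0.0317), with all 5 p.284R mice beyond all 5 p.254I mice, and -1.12 to -0.98 as each mouse was left out. The call was lost with swaps within replicate numbers only (exact permutation p = 0.0625, the smallest they can give), the interaction term of edgeR on the same contrast was not called (-0.94 ± 0.97, adjusted p = 1.00), and p.254V against p.254I gave -0.32 (exact permutation p = 0.294). The edgeR SE includes the spread of the split p.254V mice.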

How the results depend on the processing

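Of the counts of called genes under alternatives, 846 stayed within 1.5 times the main count and 28 did not. In the p.254V comparison with p.254I, the DESeq2 Wald test called 1 member in M0 and 1 in M2 in place of 0, and limma-voom with or without the mouse as a random block called 0 in place of 1 for the mean over polarizations. In the p.284R comparison, the DESeq2 Wald test and a fit of only the compared libraries each called 1 member in M0, in M1 and in M2 in place of 0. As each mouse was left out, counts ran from 0 to 1 in M0 of p.254V and in M0, M1 and M2 of p.284R, with 1 reached without p.254V replicate 4 or 5, from 2 to 5 for M1 within p.254I (5 without p.254I replicate 2, 4 without p.254V replicate 5), from 3 to 5 for M1 within p.254V (5 without p.254I replicate 1 or 5 or p.254V replicate 2), from 3 to 5 for M2 within p.254I (3 without p.254I replicate 5), and from 0 to 1 for other acid extruders in p.284R, with 1 without p.284R replicate 1.

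Blocking on the replicate number gave p.284R in M0 1 called member in place of 0, Slc9a9 (3.597, adjusted p = 0.029), and no other count of called members changed. Exact permutation with swaps only within that replicate block, chosen after seeing the data, cannot pass the threshold, and leaves the Slc9a9 differences of p.284R as they were with p = 0.0625 (-1.08 per mouse in M1, and 41.5, 14.1 and 10.3 points of share in M0, M1 and M2). With the mouse as a replicate block, M1 called 4 members within p.254I in place of 2 and 5 within p.254V in place of 3. Apart from the calls given beside the results, the block on the mouse changed no call of a member in a mean over genotypes.

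Interactions of Slc9a9 near 0 changed sign. For p.254V in M2 (-0.03), limma-voom with or without the mouse as a random block gave 0.089, the mouse block 0.090, and leaving out mice -0.30 to 0.20. For p.284R in M2 (-0.17), leaving out mice gave -0.45 to 0.095. Per mouse, p.254V in M2 (-0.06) gave 0.026 with a pseudocount of 0.5 and -0.29 to 0.063 without each mouse. The p.254V excess in Slc9a9 share ran from 18.4 to 32.4 points in M0, 8.45 to 14.3 in M1 and 5.57 to 9.70 in M2.

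Shares moved with the denominator. Without Slc9a9, Slc9a7 had 12.6% in M0, and Slc9a8 25.1% in M0 and 32.0% in M1. Per kb of exon, Slc9a7 had 12.5% in M0, 4.07% in M1 and 7.42% in M2, and Slc9a8 10.8% in M0, 18.4% in M1 and 12.5% in M2. Counts of 0 to 46 per library limit Slc9a2 and Slc9a4.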
